A study of Mus musculus with 13 samples.

Results

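Collagen hydroxylases and lysyl oxidases are 10 genes in this table of mouse lung transcripts, and they were taken by symbol: P4ha1, P4ha2, P4ha3, Plod1, Plod2, Plod3, Lox, Loxl1, Loxl2 and Loxl3. All 10 were found among the 32544 gene symbols counted. A filter on low counts kept 12496 genes for testing, 9 of the 10 among them, and P4ha3 did not pass. The samples were whole lungs of wild-type (WT) C57BL/6J male mice, bought at 7 weeks of age, kept for 5 days at 21% oxygen (normoxia, 7 libraries) or at 80% oxygen (hyperoxia, 6 libraries). No genotype, allele or other agent separated the groups, and all lungs were perfused with cold DPBS, a buffered saline, before freezing. RNA was read from the 3′ end of polyadenylated transcripts (Quant-seq), so a gene's count follows its number of transcripts more than their length. The labels number the libraries within each condition and do not state that each came from its own mouse, so the p-values measure the spread between these samples.

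Collagen is modified inside the endoplasmic reticulum before it is secreted. Prolyl 4-hydroxylases, built from a catalytic alpha subunit (P4HA) and the shared beta subunit P4HB, hydroxylate proline and so let the collagen triple helix hold at body temperature, and lysyl hydroxylases (PLOD) hydroxylate lysines that later carry sugars or take part in crosslinks. Both kinds of enzyme use molecular oxygen, iron, 2-oxoglutarate and ascorbate. Outside the cell, the copper enzymes of the lysyl oxidase family (LOX, LOXL) use oxygen to turn lysines of collagen and elastin into reactive aldehydes, from which the crosslinks that stiffen fibres form. In the lung these crosslinks give alveolar walls, airways and vessels their tensile strength and elastic recoil.

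Library depth was 1607111 to 3387736 total counts in normoxia and 2029006 to 4540288 in hyperoxia, so that a count of 3 was worth 0.656 to 1.84 CPM, the usual unit of counts relative to the library total. CPM values are scaled by edgeR's TMM factors throughout. The library Hyperoxia 1 stood apart from the rest, with correlations of 0.721 to 0.833 with the other 12 against 0.854 to 0.967 among those. The names of the libraries begin with the letters B to M (5 normoxic and 3 hyperoxic) or O to S (2 and 3), and the labels do not say what the letters mean, so the change of each called enzyme is given within both sets.

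Of the 9 enzymes tested, 3 were higher in hyperoxia (Lox, Loxl1 and Loxl2) and 1 was lower (P4ha1) at an adjusted p of 0.05 in edgeR's quasi-likelihood test. Among all 12496 genes tested, 22.6% passed in either direction, 11.8% higher and 10.8% lower. The 3 higher genes all belong to the lysyl oxidase family, and no lysyl hydroxylase passed. The numbers of calls moved with the setting: Lox passed in every fit run, whereas Loxl1 and Loxl2 lay close to the threshold. P4ha1 passed in every fit but the one with replicate number as a block (edgeR adjusted p = 0.0782). In a lung homogenate, fewer cells of a type and less RNA per cell cannot be told apart, and this holds for each level below.

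**Figure D1:**
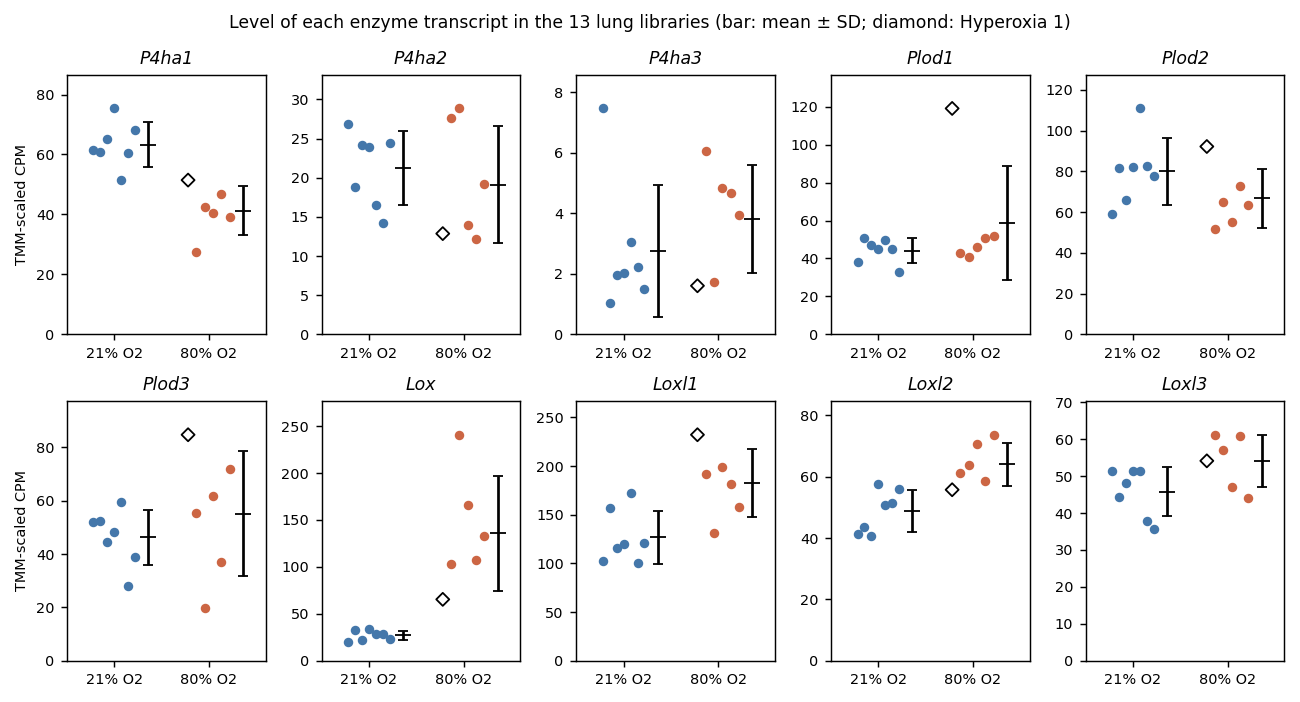
Level of the 10 enzyme transcripts (TMM-scaled CPM, each axis from 0) in the 7 normoxic (21% O2, blue) and 6 hyperoxic (80% O2, orange) libraries, with Hyperoxia 1 as an open diamond and the mean ± SD as a bar. Lox is the one gene whose groups do not overlap, with normoxic libraries at up to 33.3 CPM and hyperoxic libraries at 65.4 CPM or more, and Plod1 is high in Hyperoxia 1 alone.

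The alpha subunits of prolyl 4-hydroxylase come first in the order of collagen synthesis. P4ha1 encodes the isoform that most tissues use. In normoxia its lowest, median and highest levels were 51.5, 61.6 and 75.4 CPM, and in hyperoxia 27.6, 41.4 and 51.5 CPM. Of the 6 hyperoxic libraries, 5 were below the lowest normoxic one, and Hyperoxia 1, the highest, was level with it. The mean of P4ha1 fell from 63.3 ± 7.40 to 41.3 ± 8.12 CPM (SD, n = 7 and 6), a log2 fold change of -0.62 (SE 0.15, 95% interval -0.91 to -0.32, edgeR adjusted p = 0.00771). It was lower within both letter sets, by a log2 difference of -0.66 in B to M and -0.60 in O to S, and its log2 fold change without Hyperoxia 1 was -0.67.

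P4ha2 encodes the second alpha subunit, which is found in cartilage, endothelium and other more restricted sites. It lay at 14.2, 23.9 and 26.9 CPM (lowest, median and highest) in normoxia and at 12.2, 16.6 and 28.8 CPM in hyperoxia. The hyperoxic libraries spread to both sides of the normoxic range, with 3 under it and 2 above it. The log2 fold change was -0.16 (SE 0.25, 95% interval -0.64 to 0.32, edgeR adjusted p = 0.695). P4ha3, the third alpha subunit, was near the limit of the counting depth, with 3 to 20 counts per library in normoxia and 3 to 18 in hyperoxia. Its levels of 1.05 to 7.47 CPM (median 2.02) and 1.61 to 6.05 CPM (median 4.31) overlapped, and a difference was not detectable at this depth. The 3 alpha subunits summed to 87.3 ± 11.1 CPM in normoxia and 64.2 ± 4.84 CPM in hyperoxia, and P4ha1 held 72.7% ± 4.46 of those counts in normoxia and 64.3% ± 11.8 in hyperoxia (SD, n = 7 and 6). The change of P4ha1 was not shown to differ from that of P4ha2. The within-library log2 difference between the pair moved by -0.42 (SE 0.31), with a two-sided exact permutation p of 0.213 and an adjusted p of 0.352 over the 10 within-family pairs examined.

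The P4HA genes are known targets of the hypoxia-inducible factors (HIF). ACGTG, a form of the core of the element that these factors bind, is shown here because the study's variable is oxygen. Other forms of the core, such as GCGTG, were not searched and are not marked. RefSeq promoters (GRCm38.p6, 250 bases before to 50 after the start site) were at hand for 5 of the 10 genes, P4ha1, P4ha2, P4ha3, Plod1 and Plod3, and were searched for ACGTG on both strands. The 5 letters were found in 3 of the 5 and in 19.6% of all 32851 promoters of the same length. The motif can lie inside CACGTG, the E-box of other factors, and in none of the windows printed here did it do so. The windows follow as 30 bases on the gene's strand, 5′ to 3′, with the match in capitals (in P4ha1 the match is on the other strand, and so reads CACGT).
P4ha1, chr10:59323268-59323297, plus strand, match 16 bases before the start: tgtgacagagcgCACGTagcgagggctgcg
P4ha2, chr11:54100834-54100863, plus strand, match 78 bases before the start: tgtgcatcgcatACGTGcagcgcgtggcgg
P4ha2, chr11:54100922-54100951, plus strand, match 10 bases after the start: cgggaggtggggACGTGgcggaggctcaag
Plod3, chr5:136986953-136986982, plus strand, match 54 bases before the start: cttgaagtcattACGTGatgttcccttgga
The promoters of P4ha3 and Plod1 held no match to ACGTG, the only form searched. Of the 3 genes with a match, P4ha1 was lower in hyperoxia and the other 2, P4ha2 and Plod3, did not pass the test. These matches describe letters in the reference and say nothing of whether a factor was bound.

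The lysyl hydroxylases act next, on lysines of the same chains. Plod1, whose product hydroxylates lysines within the triple helix, lay at 33.0, 45.1 and 51.0 CPM (lowest, median and highest) in normoxia and at 40.6, 48.5 and 119 CPM in hyperoxia. The highest value was that of Hyperoxia 1, and the next hyperoxic library was at 51.6 CPM. The log2 fold change was 0.40 (SE 0.23, 95% interval -0.06 to 0.86, edgeR adjusted p = 0.241), and 0.09 without Hyperoxia 1.

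Plod2, whose product hydroxylates lysines of the telopeptides and so sets the type of crosslink, is also known as a HIF target. It was the most counted of the 3 lysyl hydroxylases in normoxia, with 59.0, 81.8 and 111 CPM (lowest, median and highest), and lay at 51.8, 64.2 and 92.2 CPM in hyperoxia. No hyperoxic library was above the normoxic range and 2 were below it. The log2 fold change of -0.26 (SE 0.17, 95% interval -0.59 to 0.07, edgeR adjusted p = 0.296) did not pass, nor did the value of -0.35 without Hyperoxia 1 (edgeR adjusted p = 0.0945).

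Plod3, whose product also adds glucose to hydroxylysine-linked galactose, had the largest SE of the log2 fold change in the family. It lay at 27.9, 48.4 and 59.4 CPM in normoxia and at 19.8, 58.6 and 84.7 CPM in hyperoxia, with 3 hyperoxic libraries above the normoxic range and 1 below it. The log2 fold change was 0.26 (SE 0.27, 95% interval -0.27 to 0.78, edgeR adjusted p = 0.538), and the log2 difference was -0.17 within B to M and 0.72 within O to S. The 3 genes summed to 170 ± 25.8 CPM in normoxia and 180 ± 60.0 CPM in hyperoxia (SD, n = 7 and 6).

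The balance within the PLOD family moved although no member passed alone. The within-library log2 difference of Plod1 over Plod2 went from -0.84 ± 0.27 in normoxia to -0.27 ± 0.35 in hyperoxia (SD, n = 7 and 6), a change of 0.57 (SE 0.17, two-sided exact permutation p = 0.00524, adjusted p = 0.0131 over the 10 pairs). Of the hyperoxic libraries, 4 of 6 were above the normoxic range. The change was 0.57 within B to M and 0.69 within O to S, and 0.44 to 0.65 with any 1 library left out. The other 2 pairs of the family did not pass, with changes of 0.16 (SE 0.27, exact permutation adjusted p = 0.565) for Plod1 over Plod3 and -0.41 (SE 0.34, exact permutation adjusted p = 0.352) for Plod2 over Plod3. Both of these pairs differed between the letter sets, with 0.53 in B to M and -0.37 in O to S for Plod1 over Plod3, and -0.04 and -1.06 for Plod2 over Plod3.

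Lysyl oxidase itself, the founding member of the crosslinking family, showed the largest change among the 9 enzymes tested. Lox lay at 20.2, 28.2 and 33.3 CPM (lowest, median and highest) in normoxia, from 46 to 102 counts per library. In hyperoxia the 6 libraries in order of replicate were at 65.4, 103, 241, 166, 107 and 133 CPM, from 122 to 693 counts. The groups did not overlap, which 5.60% of all genes tested showed in that direction and 5.23% in the other, and even Hyperoxia 1, the lowest hyperoxic library, was above the highest normoxic one. Its mean rose from 27.0 ± 5.20 to 136 ± 61.3 CPM (SD, n = 7 and 6), 5.04-fold, with a log2 fold change of 2.33 (SE 0.25, 95% interval 1.84 to 2.83, edgeR adjusted p = 1.1e-05). By p it stood at rank 85 of the 12496 genes.

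The spread of Lox among the hyperoxic libraries was wider than in normoxia, and 1 library weighed on its size but not on its direction. Without Hyperoxia 3, the highest library, the log2 fold change was 2.11, and without Hyperoxia 1, the lowest, it was 2.49. The difference was 2.10 within B to M and 2.35 within O to S. Lox lies on the minus strand of chromosome 18, where GENCODE M21 annotates an antisense gene, AC161119.1, over part of it but not over its last 1000 bases, the stretch that 3′ reads sample.

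Loxl1, which is needed for elastic fibre upkeep, was the most counted lysyl oxidase in normoxia. It lay at 100.3, 119 and 173 CPM (lowest, median and highest) in normoxia and at 131, 187 and 232 CPM in hyperoxia. Of the hyperoxic libraries, 4 of 6 were above the normoxic range and none was below it. Loxl1 rose from 127 ± 27.4 to 182 ± 34.8 CPM (SD, n = 7 and 6), 1.44-fold, with a log2 fold change of 0.53 (SE 0.17, 95% interval 0.20 to 0.85, edgeR adjusted p = 0.0308). With 1 library left out the log2 fold change was 0.46 to 0.64 and the adjusted p 0.0125 to 0.0592, and the call was lost in 6 of 13 such fits (without Normoxia 1, 3, 4, 6 or 7 or Hyperoxia 4). The log2 difference was 0.46 within B to M and 0.70 within O to S. The gene lies at chr9:58287738-58313186 (GRCm38, minus strand).

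Loxl2, which crosslinks collagen of basement membranes and fibrils, was the third member called higher. It lay at 40.6, 50.9 and 57.5 CPM in normoxia and at 55.8, 62.6 and 73.7 CPM in hyperoxia, and 5 of 6 hyperoxic libraries were above the normoxic range. Loxl2 rose from 48.8 ± 6.91 to 64.0 ± 6.98 CPM (SD, n = 7 and 6), 1.31-fold, with a log2 fold change of 0.39 (SE 0.13, 95% interval 0.13 to 0.65, edgeR adjusted p = 0.0434). With 1 library left out the log2 fold change was 0.37 to 0.46 and the adjusted p 0.0152 to 0.0885, and 6 of 13 fits lost the call (without Normoxia 1, 2 or 3 or Hyperoxia 4, 5 or 6). The log2 difference was 0.37 within B to M and 0.33 within O to S, and a model that included the letter set gave a log2 fold change of 0.35 and an adjusted p of 0.0602. An antisense gene, Gm27177, overlaps Loxl2 (chr14:69609068-69695834, GRCm38, plus strand) outside its last 1000 bases.

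Loxl3, the remaining member, is known for its part in cartilage and palate development. It lay at 35.7, 48.1 and 51.5 CPM in normoxia and at 44.2, 55.6 and 61.2 CPM in hyperoxia, with 4 of 6 hyperoxic libraries above the normoxic range. The log2 fold change was 0.24 (SE 0.14, 95% interval -0.04 to 0.52, edgeR adjusted p = 0.246). Its last 1000 bases overlap Htra2 on the opposite strand, and since the use of strand in the counting is not given in the sources used here, reads of the 2 genes may be mixed.

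**Figure D2:**
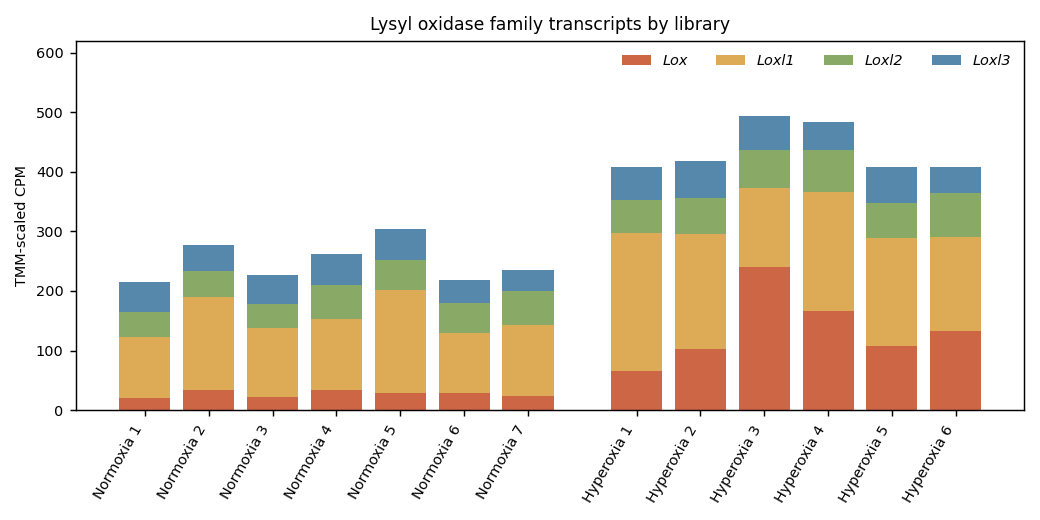
TMM-scaled CPM of Lox, Loxl1, Loxl2 and Loxl3 stacked for each of the 13 libraries (bars start at 0). The stacks reach 216 to 303 CPM in normoxia and 407 to 493 CPM in hyperoxia, and the Lox segment grows from 9.29 to 13.03% of the stack to 16.1 to 48.8%.

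Summed over its 4 genes, the lysyl oxidase family held 248 ± 33.3 CPM in normoxia (216 to 303) and 436 ± 40.5 CPM in hyperoxia (407 to 493; SD, n = 7 and 6), with no overlap between the groups. These are sums and shares of counts, not divided by transcript length. Lox supplied 10.9% ± 1.63 of the family's counts in normoxia and 30.4% ± 11.1 in hyperoxia, whereas Loxl1 supplied 50.7% ± 4.64 and 42.3% ± 9.93, Loxl2 19.9% ± 3.29 and 14.7% ± 1.75, and Loxl3 18.6% ± 3.13 and 12.5% ± 2.12. In Hyperoxia 3 Lox was the most counted of the 4, and in Hyperoxia 1 its share was the lowest of the hyperoxic libraries, 16.1%.

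The members of the family did not move by the same amount. Lox rose relative to Loxl1 by 1.68 on the log2 scale (SE 0.35, exact permutation p = 0.00117, adjusted p = 0.00389 over the 10 pairs), with 5 of 6 hyperoxic libraries above the normoxic range. It rose by 1.81 relative to Loxl2 (SE 0.24) and by 1.97 relative to Loxl3 (SE 0.30), in both cases with 6 of 6 hyperoxic libraries above the normoxic range and the smallest p that this exact permutation test can give, 0.000583 (adjusted p = 0.00291). The changes were 1.64, 1.73 and 1.88 within B to M and 1.65, 2.02 and 1.90 within O to S for Loxl1, Loxl2 and Loxl3 in turn. Among Loxl1, Loxl2 and Loxl3 no pair passed, with changes of 0.13 to 0.29 (exact permutation adjusted p = 0.284 to 0.565).

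**Figure D3:**
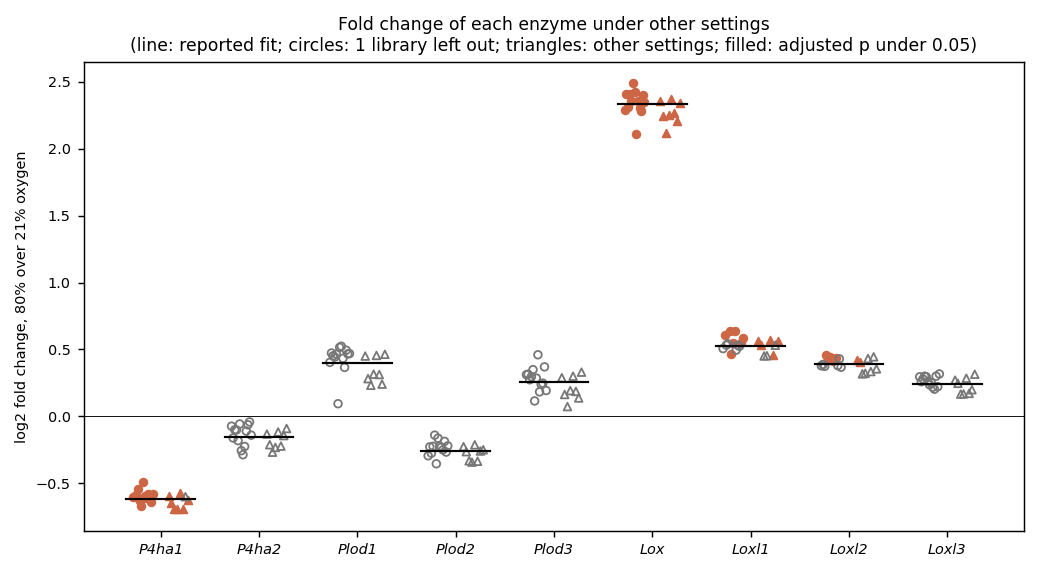
Log2 fold change (80% over 21% oxygen) of the 9 enzymes tested, as reported (line), with 1 library left out (circles) and under the other settings (triangles), filled where the adjusted p is under 0.05. Lox stays filled throughout at 2.11 to 2.49, P4ha1 is open under the replicate block alone, and Loxl1 and Loxl2 hold a mix of filled and open points.

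The other genes of the pathway were read from 6 lists in the same fit, beside a median log2 fold change of -0.03 over all genes tested. Among the other subunits and relatives of the hydroxylation complexes (P4hb, the prolyl 3-hydroxylase genes, Crtap and Ppib), 0 of 7 tested passed in edgeR and the median was -0.30. The same list held Loxl4, a lysyl oxidase and not a hydroxylation gene, which did not pass the filter. At an unadjusted p of 0.05 there were 2, P3h1 (log2 fold change 0.54) and P3h2 (-0.58), and 0 passed with DESeq2, limma-voom or limma on the deposited values. P4hb, the beta subunit that P4HA proteins need, had means of 151 ± 33.9 (normoxia) and 130.2 ± 58.5 CPM (hyperoxia; log2 fold change -0.20, edgeR adjusted p = 0.666). Without Hyperoxia 1 its log2 fold change was 0.005, and the log2 difference was -1.01 within B to M and 0.59 within O to S.

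Of 10 genes for procollagen chaperones and hydroxylysine glycosylation, 0 rose and 1 fell, with a median of 0.09 (0.25 without Hyperoxia 1). That gene was Colgalt2, a galactosyltransferase that acts on hydroxylysine, which went from 11.05 ± 4.05 to 1.36 ± 0.82 CPM (log2 fold change -2.89, SE 0.40, edgeR adjusted p = 1.2e-04). The hyperoxic libraries held 0 to 9 counts of it, around the floor of 3, against 23 to 50 in normoxia, so the size of this fold is loosely set, and the log2 difference was -3.12 within B to M and -1.84 within O to S. Of 9 tested genes for procollagen processing and the activation of lysyl oxidase, 1 rose and 2 fell, with a median of -0.35 (-0.18 without Hyperoxia 1). Adamts2, the protease that removes the amino-terminal propeptide, rose by 1.12 (SE 0.12, edgeR adjusted p = 1.2e-05). Pcolce2, an enhancer of the protease that removes the other end, fell from 796 ± 118 to 223 ± 29.3 CPM (log2 fold change -1.83, SE 0.14, edgeR adjusted p = 4.6e-07), and Fbln5, which tethers LOXL1 to elastic fibres, had a log2 fold change of -0.95 (SE 0.12, edgeR adjusted p = 5.8e-05). Bmp1, which encodes that protease and also cleaves the LOX proenzyme, did not pass (log2 fold change -0.92, edgeR adjusted p = 0.0925), and its log2 difference was -1.78 within B to M and 0.003 within O to S. Leaving out Hyperoxia 1, which belongs to B to M, gave Bmp1 a log2 fold change of -0.73 (edgeR adjusted p = 0.112).

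Of 6 fibrillar collagen and elastin genes tested, which encode substrates of the lysyl oxidases, 4 rose, none fell and 2 did not pass, with a median of 0.62, and 2 of 6 passed with the replicate block. Eln, which encodes tropoelastin, lay at 97.1 to 285 CPM in normoxia and at 699 to 1593 CPM in hyperoxia. It rose 6.87-fold with no overlap between the groups (log2 fold change 2.78, SE 0.29, edgeR adjusted p = 8.2e-06). Col5a2 and Col5a1, which encode chains of the type V collagen that starts fibrils, rose by 1.26 (SE 0.15) and 0.68 (SE 0.19), and Col3a1, the chain of type III collagen, by 0.57 (SE 0.17; edgeR adjusted p = 3.5e-05, 0.0181 and 0.0215). The 2 chains of type I collagen did not pass, with log2 fold changes of 0.45 for Col1a1 (SE 0.21, edgeR adjusted p = 0.146) and 0.12 for Col1a2 (SE 0.14, edgeR adjusted p = 0.594).

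**Figure D4:**
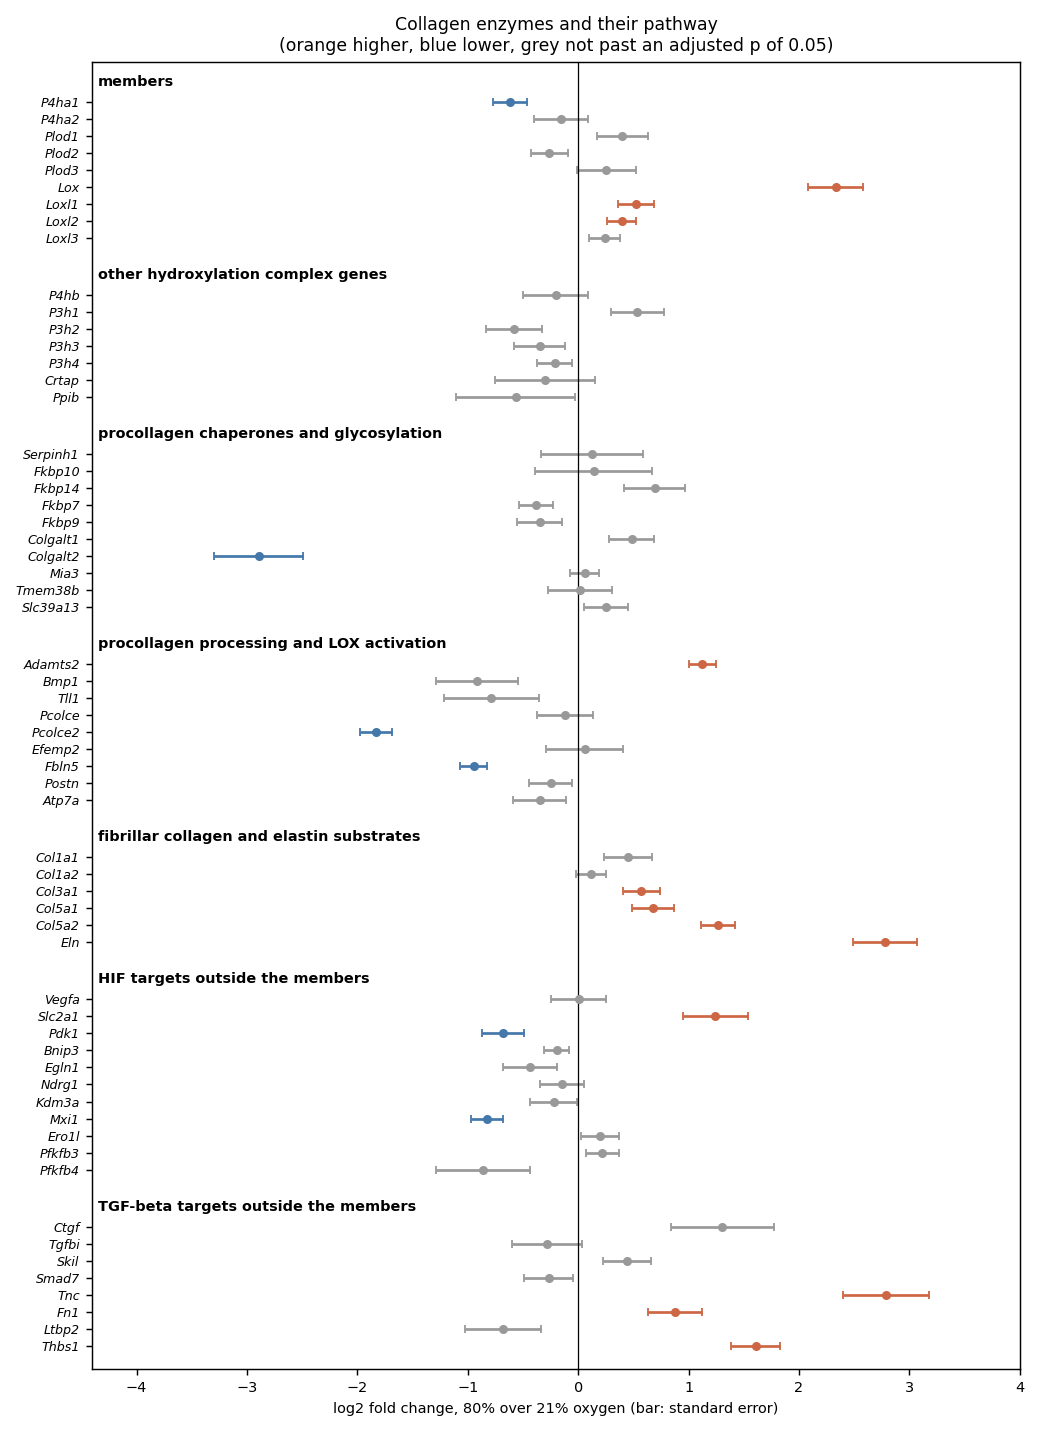
Log2 fold change (80% over 21% oxygen) with its standard error for the 9 enzymes tested (headed members) and tested genes of the 6 pathway lists, coloured where the edgeR adjusted p is under 0.05. Lox at 2.33 and Eln at 2.78 stand far to the right, and Colgalt2, with 0 to 9 counts in the hyperoxic libraries, at -2.89 far to the left.

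The lists of genes known to answer to HIF and to TGF-beta, a growth factor that induces Lox and collagen genes, were read in the same way with the enzymes left out. The paper's discussion names LOX too, beside P4HA1, P4HA2 and PLOD2, among the enzymes raised through HIF in hypoxia. Of 11 HIF targets tested, 1 rose and 2 fell, with a median of -0.20. Slc2a1, a glucose transporter, rose by 1.24 (SE 0.30, edgeR adjusted p = 0.00668), Mxi1, an antagonist of MYC, had a log2 fold change of -0.83 (SE 0.14, edgeR adjusted p = 7.2e-04), and Pdk1, which restrains pyruvate entry into mitochondria, one of -0.68 (SE 0.19, edgeR adjusted p = 0.0186).

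Of 9 TGF-beta targets tested, 4 rose and none fell, with a median of 0.87. Tnc, the matrix protein tenascin C, rose from 3.80 ± 1.63 to 26.6 ± 13.8 CPM (log2 fold change 2.79, SE 0.39, edgeR adjusted p = 1.2e-04). Thbs1, an activator of latent TGF-beta, rose by 1.61 (SE 0.22) and Fn1, fibronectin, by 0.87 (SE 0.25; edgeR adjusted p = 1.0e-04 and 0.0173). Fn1 differed between the letter sets, with 0.26 in B to M and 1.35 in O to S. It did not pass with limma on the deposited values (0.68, adjusted p = 0.0927) or with the replicate block (0.77, adjusted p = 0.111). Leaving out Hyperoxia 1, which belongs to B to M, gave Fn1 a log2 fold change of 1.06 (edgeR adjusted p = 1.5e-04). Hyperoxia 1, where Lox was lowest among the hyperoxic libraries, also had the lowest sum over this list, 344 CPM against 599 to 864 CPM in the other 5. It was likewise the lowest hyperoxic library for the hydroxylation, chaperone and processing lists and for the endothelial, airway and cartilage and cardiac markers. For the smooth muscle, mesothelial and leukocyte markers it was the highest. Any tie between these sums and Lox was not tested. Without Hyperoxia 1, 6 of the 9 TGF-beta targets passed, all higher.

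The cells that make these enzymes were followed by marker lists, whose part in the results was not tested. Fibroblast markers, of the cells that make most fibrillar collagen, summed to 1559 to 2291 CPM in normoxia and 1287 to 1628 CPM in hyperoxia, with 1 of 8 tested genes higher (Pdgfra, log2 fold change 1.19) and 2 lower (Npnt and Inmt), or 3 lower without Hyperoxia 1. Mean Inmt went from 738 to 188 CPM and mean Npnt from 459 to 274 CPM, and 5 genes were not called. The list median was -0.06 (-0.18 without Hyperoxia 1), against -0.03 over all genes tested. Smooth muscle and pericyte markers summed to 298 to 349 CPM and 299 to 581 CPM, with 2 of 8 higher (Acta2 and Cnn1) and none lower. The highest of these sums was that of Hyperoxia 1, where Lox was lowest among the hyperoxic libraries and Plod1 highest, and without it the hyperoxic range was 299 to 477 CPM and 1 of 8 passed. Endothelial markers summed to 2763 to 4885 CPM in normoxia and 1224 to 4799 CPM in hyperoxia (1 of 5 lower), and mesothelial markers to 90.6 to 161 and 46.2 to 118 CPM (1 of 3 lower). Without Hyperoxia 1 the hyperoxic endothelial sums were 1399 to 4799 CPM, with 1 of 5 genes higher and 2 lower, and the mesothelial sums were 46.2 to 87.5 CPM, all below the normoxic range, with 2 of 4 lower.

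The labelled tissue was checked against lung epithelial markers, whose sums lay well above the counting floor in all libraries and were lower in hyperoxia. Most of the normoxic airway sum came from Scgb1a1 (mean 33862 CPM), and most of the alveolar sum from Sftpc and Sftpa1 (9637 and 7580 CPM). Not called were Sftpb, Ager and Hopx in the alveolar list (log2 fold changes -0.38, -0.11 and 0.08). In the airway list these were Scgb3a2 and Foxj1 (-1.28 and -0.008). Alveolar epithelial markers summed to 12758 to 23723 CPM in normoxia and 4068 to 7587 CPM in hyperoxia (4 of 7 tested lower, none higher), and airway epithelial markers to 14458 to 53111 and 184 to 10041 CPM (2 of 4 lower), with the lowest airway sum in Hyperoxia 1. Without that library the hyperoxic airway sums were 3234 to 10041 CPM, and 3 of 4 genes were lower. Leukocyte markers summed to 224 to 395 and 120.2 to 197 CPM (2 of 5 lower). Cartilage and cardiac markers summed to 50.8 to 151 and 4.29 to 126 CPM (11.8 to 126 CPM without Hyperoxia 1; 1 of 3 lower either way), and the cartilage genes Acan and Matn1 were at 0 in all 13 libraries.

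The genes whose pattern over the 13 libraries was most like that of the member with the smallest adjusted p in each direction are given as a description, since all points share the 2 conditions. For Lox they were Vmp1, an autophagy membrane protein (Pearson r of log2 CPM 0.988), Eif1a, a translation initiation factor (0.981), and Gclc, the catalytic subunit of the first enzyme of glutathione synthesis (0.980). Within the 6 hyperoxic libraries alone the r values with Lox were 0.983, 0.930 and 0.934, and within the 7 normoxic libraries 0.631, 0.461 and 0.379. For P4ha1 they were Mef2c, a transcription factor of muscle and endothelium (0.950), Tet1, which oxidises 5-methylcytosine (0.950), and Lepr, the leptin receptor (0.931). Their r values with P4ha1 were 0.942, 0.932 and 0.858 within hyperoxia, and 0.550, 0.623 and 0.718 within normoxia. Vmp1, Eif1a and Gclc had log2 fold changes of 1.88, 1.32 and 2.11, and Mef2c, Tet1 and Lepr of -0.88, -2.60 and -1.49. Tet1 held 1 to 15 counts in the hyperoxic libraries, reaching under the floor of 3, so the size of its fold is loosely set.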

How the data were processed

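Per the methods and the submitters' processing notes, reads were pseudoaligned with kallisto in the BioJupies pipeline (mm10). The authors deposited whole-number counts per gene symbol, unnormalised, and a table of log10 values, which recomputation from the counts showed to be log10 of CPM plus 1. The use of strand in counting and the annotation release are not given in the sources used here. All columns were mapped to the 13 samples, with 0 left over.

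The counts were tested with edgeR 4.0.16 (R 4.3.3; TMM, filterByExpr, glmQLFit, glmQLFTest, no covariate, Benjamini-Hochberg over 12496 genes). Standard errors were derived from the F statistic. Pairs of members of 1 family were compared by the within-library difference in log2 CPM (prior count 2) in a two-sided exact permutation test. Libraries of 1 group differed by at least 3.79 in chi-square per gene over the 36 same-group pairs, beyond counting noise, so no pair was merged as a repeat deposit of 1 library, which does not show that they came from separate mice. Counts carry no molecular identifiers here, and a count of 3 as the floor covers counting error only. Alternatives were DESeq2 1.42.0, limma 3.58.1 (voom, and on the deposited log10 values after conversion to log2), scaling by library size alone, other filters, a replicate block, the letter set as a term, a prior count of 0.5 for the pairs and each library left out.

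The members and lists were chosen with earlier results of these data known. Named were all 10 members, up to 4 called genes with the largest fold change per pathway list, and the 3 genes most like the called member with the smallest adjusted p in each direction, and 1 list gene is not reported here. P4hb, P3h1, P3h2, Bmp1, Col1a1, Col1a2, Loxl4 and the markers with values were named after those were seen. Annotation was GENCODE M21 (GRCm38), matched by symbol.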

Additional observations from a re-analysis of the deposited data

Results flagged for a closer look

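Of 74 groups of values examined, 6 held 1 library whose gap to its nearest neighbour was large for the range of its group (Dixon's criterion), where chance gives about 1 in 20, and 3 of the 6 were in Hyperoxia 1. P4ha3 stood at 7.47 CPM in Normoxia 1, with the next normoxic library at 3.06 CPM. Plod1 stood at 119 CPM in Hyperoxia 1, with the next hyperoxic library at 51.6 CPM. Col5a1 was at 96.5 CPM in Hyperoxia 1 and Slc2a1 at 137 CPM in Hyperoxia 3, with the nearest hyperoxic libraries at 65.3 and 65.7 CPM. Normoxia 5 had 1607111 total counts, the fewest of the 13 libraries. Hyperoxia 1 had a mean correlation of 0.779 with the other libraries, against 0.886 for the next lowest hyperoxic library.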

How the results depend on the processing

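Lox and P4ha1 kept their direction in each fit run, Lox also its call, and P4ha1 its call in each but the one with the replicate block. The number of members called was 4 with edgeR, DESeq2 and limma-voom, 3 with no filter, with at least 10 counts in every library or with the letter set as a term (Loxl2 lost, adjusted p = 0.0584, 0.0693 and 0.0602), 2 with limma on the deposited values or with library size alone (Lox and P4ha1), and 2 to 4 with 1 library left out (2 without Normoxia 1, Normoxia 3 or Hyperoxia 4). Loxl1 had log2 fold changes of 0.45 to 0.57 and adjusted p of 0.0126 to 0.109 over the settings other than left-out libraries, and Loxl2 0.32 to 0.44 and 0.00937 to 0.113. With the deposited values the median of all genes was -0.16, and relative to it the changes were 2.28 for Lox, 0.61 for Loxl1, 0.47 for Loxl2 and -0.54 for P4ha1. The share of all calls that were higher was 52.3% in edgeR, 38.8% with the deposited values and 42.7% with library size alone.

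Replicate numbers did not pair the samples, since same-numbered libraries had correlations of -0.325 to 0.272 in their deviations. With the replicate block, which drops Normoxia 7 because it has no hyperoxic partner, 1 member (Lox, 2.21, adjusted p = 0.00151), 2 of the substrate genes and 1291 of all genes were called, against 2397 without Normoxia 7 and no block and 2819 over all 13 libraries, P4ha1 had a log2 fold change of -0.60 (adjusted p = 0.0782), Col3a1 and Col5a1 were not called (0.63 and 0.72, adjusted p = 0.0577 and 0.0866), and 0 of 10 within-family pairs passed. There the exact test over 6 pairs cannot go below 0.0312, so this count says nothing about stability. Of the chaperone and glycosylation genes 2 were called with DESeq2, the deposited values or library size alone, and 1 to 2 with a library left out. In the list of other hydroxylation genes 1 was called with no filter, the lysyl oxidase Loxl4, and 0 to 1 with a library left out. The count over all genes was 2305 to 3633 with a library left out. Plod1 over Plod3 turned to -0.017 without Hyperoxia 3 (range -0.017 to 0.28). Depth limits P4ha3, at 3 to 20 counts.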

Other observations

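Loxl4, the lysyl oxidase relative outside the 10 enzymes, was too low to pass the filter. It had 6 counts in all over the 7 normoxic libraries (0 to 3 per library, 4 libraries with any) and 38 over the 6 hyperoxic libraries (0 to 11 per library, 5 with any). In the edgeR fit with no filter on low counts, over 19718 genes, its adjusted p was 0.0196, and P4ha3 had a log2 fold change of 0.54 (SE 0.46, adjusted p = 0.45). No fold is given for Loxl4, whose normoxic libraries were all at or under the floor of 3 counts.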
